A study of Mus musculus with 9 samples.

Results

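The subunits of NF-κB and the kinases that activate it were followed in mouse embryonic fibroblasts (MEFs) under hyperosmotic stress of graded intensity. They comprise the 5 Rel-family subunits (Nfkb1, Nfkb2, Rel, Rela and Relb) and 5 proteins of the kinase arm (Chuk, Ikbkb, Ikbkg, Map3k14 and Tbk1), 10 genes of the 35275 listed, chosen by their symbols. All 10 passed the filter on low counts, as did 13082 genes in all. The cells were MEFs of the strain C57Bl/6, in iso-osmolar medium (300 mOsm), in medium brought to 500 mOsm with 200 mM sucrose, or in medium brought to 600 mOsm with 300 mM sucrose, and the stress lasted 3 h. Each treatment was sequenced as 3 libraries, and nothing in the labels says that they came from separate cultures, so p-values measure the spread between these libraries only. The labels give no other genetic change or agent, and do not say whether the MEFs were a cell line or a primary culture. The paper calls the sequenced MEFs wild type and lists MEFs among the cell lines it used. These are bulk libraries, in which fewer cells of a type and less RNA per cell cannot be told apart.

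NF-κB is a family of dimeric transcription factors that share the Rel homology domain. Rela (p65), Rel (c-Rel) and Relb carry a transactivation domain, whereas Nfkb1 and Nfkb2 encode the precursors p105 and p100, which yield the DNA-binding subunits p50 and p52. In resting cells IκB proteins hold the dimers in the cytoplasm. In the canonical pathway a complex of IKKα (Chuk), IKKβ (Ikbkb) and the scaffold NEMO (Ikbkg) phosphorylates IκBα, which is then degraded. In the non-canonical pathway NIK (Map3k14) activates IKKα, and p100 is processed to p52, which pairs with Relb. TBK1 is an IKK-related kinase of the antiviral response. Much of this regulation acts on proteins, through phosphorylation, processing and degradation, which transcript counts do not measure.

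Several NF-κB genes are known targets of NF-κB itself, so the 250 bases before each annotated start were searched for the κB consensus. RefSeq (GRCm38.p6, the assembly of the table's coordinates) gave windows for 7 of the 10 genes, 12 windows in all, and none for Nfkb1, Relb and Ikbkb in the table used here. A match on either strand was found in 7.25% of the 32817 windows searched. Among these genes it was found for Rel and Nfkb2 only, and not in the windows of Rela, Chuk, Ikbkg, Map3k14 and Tbk1. The TonE consensus, the site of the osmotic stress factor TonEBP, was found in 4.31% of all windows and in none of the 12. A GC box (GGGCGG) was found in 32.7% of all windows, and its matches shared no base with a κB match in these 12. The windows of Rel and Nfkb2 are shown because they hold the κB matches, and that of Chuk because it holds none. Letters run 5′ to 3′ on the gene's strand, and capitals mark κB matches.
Rel, chr11:23770970-23771219, minus strand: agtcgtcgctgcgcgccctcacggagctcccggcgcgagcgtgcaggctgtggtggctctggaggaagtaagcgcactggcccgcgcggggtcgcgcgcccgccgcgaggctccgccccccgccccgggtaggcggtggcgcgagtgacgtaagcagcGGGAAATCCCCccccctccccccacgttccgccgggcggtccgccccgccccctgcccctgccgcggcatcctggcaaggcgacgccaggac
Nfkb2, chr19:46304487-46304736, plus strand: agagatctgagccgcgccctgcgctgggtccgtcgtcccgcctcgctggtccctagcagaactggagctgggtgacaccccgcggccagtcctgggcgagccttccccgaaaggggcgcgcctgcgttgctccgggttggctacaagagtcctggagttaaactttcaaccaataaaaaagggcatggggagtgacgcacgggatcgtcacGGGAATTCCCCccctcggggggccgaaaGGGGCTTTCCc
Chuk, chr19:44107478-44107727, minus strand: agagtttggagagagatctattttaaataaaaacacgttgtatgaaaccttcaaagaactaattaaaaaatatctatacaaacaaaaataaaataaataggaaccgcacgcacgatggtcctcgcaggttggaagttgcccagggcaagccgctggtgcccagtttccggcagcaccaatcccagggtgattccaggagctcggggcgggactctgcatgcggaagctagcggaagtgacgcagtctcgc
The Rel window holds 1 such stretch, which begins 92 bases before the start, and the Nfkb2 window holds 2, which begin 39 and 11 bases before it. The other windows of Nfkb2 each hold 1 more. These are matches of letters, and binding was not measured.

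The libraries had 21716042 to 26740832 counts on genes. The fibroblast markers were detected as the label states, 8 of 8 above 1 FPKM (counts scaled to gene length and library total) in every library, with a summed FPKM of 4438 to 4584 in iso-osmolar medium, 4323 to 4499 at 500 mOsm and 4860 to 4962 at 600 mOsm. Single fibroblast markers moved in opposite directions. From iso-osmolar medium to 600 mOsm mean FPKM rose for Col1a1 (1515 to 1879) and Col1a2 (588 to 696), and fell for Col3a1 (8.57 to 5.39) and Pdgfra (5.77 to 3.56). Of 8 immune markers 1, Csf1r, was above 1 FPKM in every library, and Ptprc, the pan-leukocyte marker CD45, was at most 0.05 FPKM. Their sum was 3.30 to 3.77 in iso-osmolar medium, 7.32 to 7.78 at 500 mOsm and 3.58 to 3.83 at 600 mOsm. None of the 4 epithelial and 3 endothelial markers passed 1 FPKM in every library, with sums of 0.03 to 0.24 and 0.20 to 0.25 in iso-osmolar medium, 1.08 to 1.47 and 3.26 to 3.72 at 500 mOsm, and 0.12 to 0.28 and 0.55 to 0.90 at 600 mOsm. These 3 sums were thus higher at 500 mOsm, each mostly through 1 gene. From iso-osmolar medium to 500 mOsm the mean FPKM of Cd79a (immune) went from 0.10 to 2.71. Cdh1 (epithelial) went from 0.003 to 0.78 and Pecam1 (endothelial) from 0.08 to 3.25. In FPKM the other markers of these lists moved less, such as Csf1r (2.39 to 3.10) and Cdh5 (0.14 in both), and Epcam was at most 0.02. Some of them also rose from a very low level, Itgam from 0.009 to 0.39, Krt18 from 0.011 to 0.083 and Ptprc from 0.006 to 0.040. These had at most 61, 5 and 7 counts in a library. Adgre1 went from 0.005 to 0.004. The part of these sums in the results was not tested.

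Levels of different genes were compared as FPKM, which corrects for gene length. In iso-osmolar medium Nfkb2 had the highest level of the 10 genes, 89.4 ± 3.0 FPKM (SD, n = 3), followed by Rela with 60.7 ± 2.29, Nfkb1 with 43.4 ± 1.94 and Relb with 15.5 ± 1.40. The activating genes were lower, from 8.67 ± 0.21 FPKM for Map3k14 to 4.87 ± 0.51 for Ikbkg. Rel, which encodes c-Rel, was lowest at 1.94 ± 0.26 FPKM. The median of all genes tested was 5.99 FPKM, and 93.1% of them had a lower level than Nfkb2 but only 31.4% a lower level than Rel. Neighbours in this order did not overlap between libraries, except Chuk (6.87 ± 1.04) and Tbk1 (6.41 ± 0.23). Under stress the order of the subunits was the same, whereas Map3k14 led the activating genes in iso-osmolar medium and at 600 mOsm, and at 500 mOsm lay below Tbk1 and Chuk, overlapping with the latter.

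Transcripts of most of these genes changed little at 3 h. Against iso-osmolar medium, 3 of the 10 genes were lower at 500 mOsm (Nfkb1, Relb and Map3k14) and 3 at 600 mOsm (Nfkb1, Relb and Chuk), and none was higher. A gene was called where its p-value from edgeR's quasi-likelihood test, adjusted over all genes tested, was under 0.05. Among all 13082 genes, 28.0% were called at 500 mOsm (13.2% higher and 14.8% lower) and 35.1% at 600 mOsm (15.1% higher and 20.0% lower), so the 3 of 10 called in each comparison were close to this background. The count at 600 mOsm depended on the processing. A correction for GC content and length gave 7 of the 10 there, beside 4984 of the 13082 genes. Between 600 and 500 mOsm, Map3k14 was higher and Nfkb1 lower, where 29.1% of all genes were called (11.9% higher and 17.2% lower). Nfkb1 was the only one of the 10 called in all 3 comparisons, and 6 of the 10 were called in none. The libraries of the groups did not overlap for 5 of the 10 genes at 500 mOsm, for 4 at 600 mOsm and for 5 when the intensities were compared, against 40.9%, 48.4% and 41.5% of all genes. The median absolute log2 fold change of the 10 genes was 0.14 in each comparison, beside 0.17, 0.22 and 0.18 over all genes tested. Comparisons of both intensities with iso-osmolar medium share its 3 libraries.

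**Figure D1:**
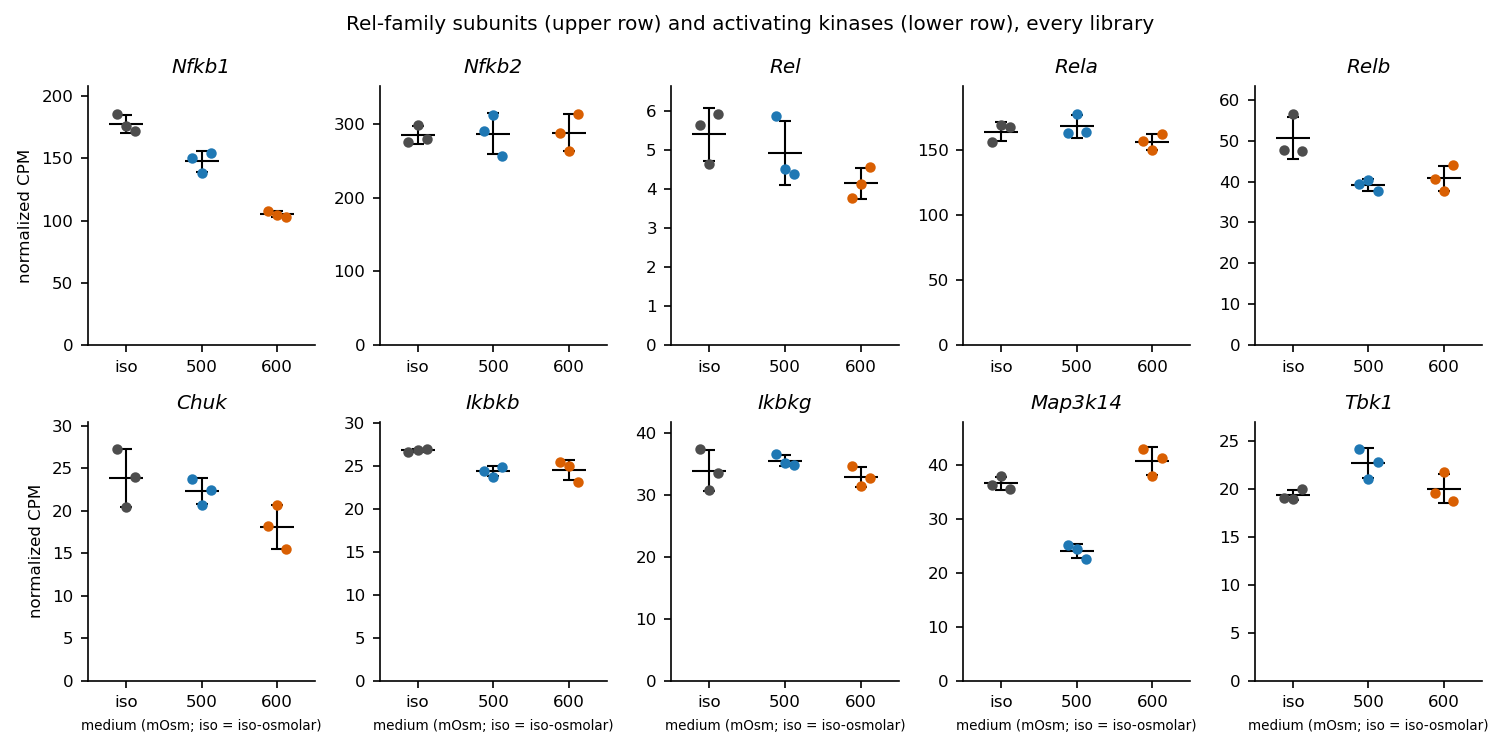
Normalized CPM (linear axis from 0) of each gene in every library, with a panel for each gene; points are libraries, horizontal bars the mean and whiskers the SD of 3 libraries. Nfkb1 steps down from 172 to 186 CPM in iso-osmolar medium to 103 to 108 CPM at 600 mOsm, and Map3k14 is low at 500 mOsm only.

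Nfkb1, which encodes p105 and p50 (chr3:135584655-135691547, minus strand), fell with each step of osmolarity. Its level in CPM (counts scaled to library totals that TMM made comparable) was 186, 176 and 172 in the 3 iso-osmolar libraries, 150.3, 138 and 155 at 500 mOsm, and 108, 105 and 103 at 600 mOsm. The 3 groups did not overlap. Nfkb1 fell by 16.9% at 500 mOsm (log2 fold change -0.27 ± 0.05 SE, adjusted p = 0.00196 by edgeR) and by 40.9% at 600 mOsm (-0.76 ± 0.05, adjusted p = 4.51e-07 by edgeR). Between the 2 intensities its log2 fold change was -0.49 ± 0.05 (adjusted p = 2.22e-05 by edgeR). At 600 mOsm 89.2% of all genes had a smaller absolute change.

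Nfkb2, the gene of p100 and p52 (chr19:46304737-46312090, plus strand), did not follow Nfkb1. Its CPM was 276, 299.5 and 280.0 in iso-osmolar medium, 291, 313 and 257 at 500 mOsm, and 289, 263 and 314 at 600 mOsm. The 3 groups overlapped throughout. Its log2 fold change was 0.01 at 500 mOsm (95% interval -0.16 to 0.18) and 0.02 at 600 mOsm (-0.15 to 0.18), intervals that leave room for a change of less than 0.2 in either direction. Nfkb2 thus stayed the most abundant subunit transcript, and its promoter windows hold κB matches (above).

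Rela, the gene of p65 (chr19:5637483-5648130, plus strand), was likewise nearly level. Its CPM was 156, 169 and 167 in iso-osmolar medium, 163, 178 and 163 at 500 mOsm, and 157, 149.9 and 162 at 600 mOsm. The iso-osmolar libraries overlapped with both stressed groups, while the 600 mOsm libraries all lay below the 500 mOsm libraries. The log2 fold change was 0.03 at 500 mOsm (95% interval -0.08 to 0.15), -0.07 at 600 mOsm (-0.19 to 0.05) and -0.10 between the intensities (-0.22 to 0.01, adjusted p = 0.172 by edgeR). A correction for GC content and gene length left these values negative at 600 mOsm and brought them past the threshold (-0.12, adjusted p = 0.0334 against iso-osmolar medium, and -0.14, adjusted p = 0.0162 against 500 mOsm, both by edgeR). With the replicate block added to that correction, the call against iso-osmolar medium was lost (-0.12, adjusted p = 0.0646 by edgeR) and that against 500 mOsm was kept (-0.14, adjusted p = 0.0386 by edgeR).

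Relb (chr7:19606217-19629438, minus strand), whose product pairs with p52, was lower at both intensities. Its CPM was 47.8, 56.6 and 47.6 in iso-osmolar medium, 39.3, 40.5 and 37.7 at 500 mOsm, and 40.7, 37.7 and 43.9 at 600 mOsm. Every stressed library lay below every iso-osmolar library, and the 2 stressed groups overlapped. Relb fell by 22.7% at 500 mOsm (log2 fold change -0.37 ± 0.08 SE, adjusted p = 0.00357 by edgeR) and by 19.5% at 600 mOsm (-0.31 ± 0.08, adjusted p = 0.00954 by edgeR). Between the intensities it differed by 0.06 (95% interval -0.12 to 0.23).

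Rel (chr11:23741514-23770970, minus strand) encodes c-Rel, the subunit that the study depleted in other experiments, and was the least expressed of the family. It had 90 to 145 counts per library. Its CPM was 5.64, 4.63 and 5.93 in iso-osmolar medium, 5.86, 4.52 and 4.38 at 500 mOsm, and 3.76, 4.12 and 4.56 at 600 mOsm. The 600 mOsm libraries lay just below the iso-osmolar ones, the highest at 4.56 and the lowest at 4.63, and the 500 mOsm libraries overlapped with both. The log2 fold change was -0.14 at 500 mOsm (95% interval -0.46 to 0.19) and -0.38 at 600 mOsm (-0.71 to -0.05, adjusted p = 0.0717 by edgeR). At this depth, and with a biological coefficient of variation of 0.105 against 0.0517 for Nfkb1, the change at 600 mOsm had an interval below 0 but missed the threshold after adjustment over all genes.

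**Figure D2:**
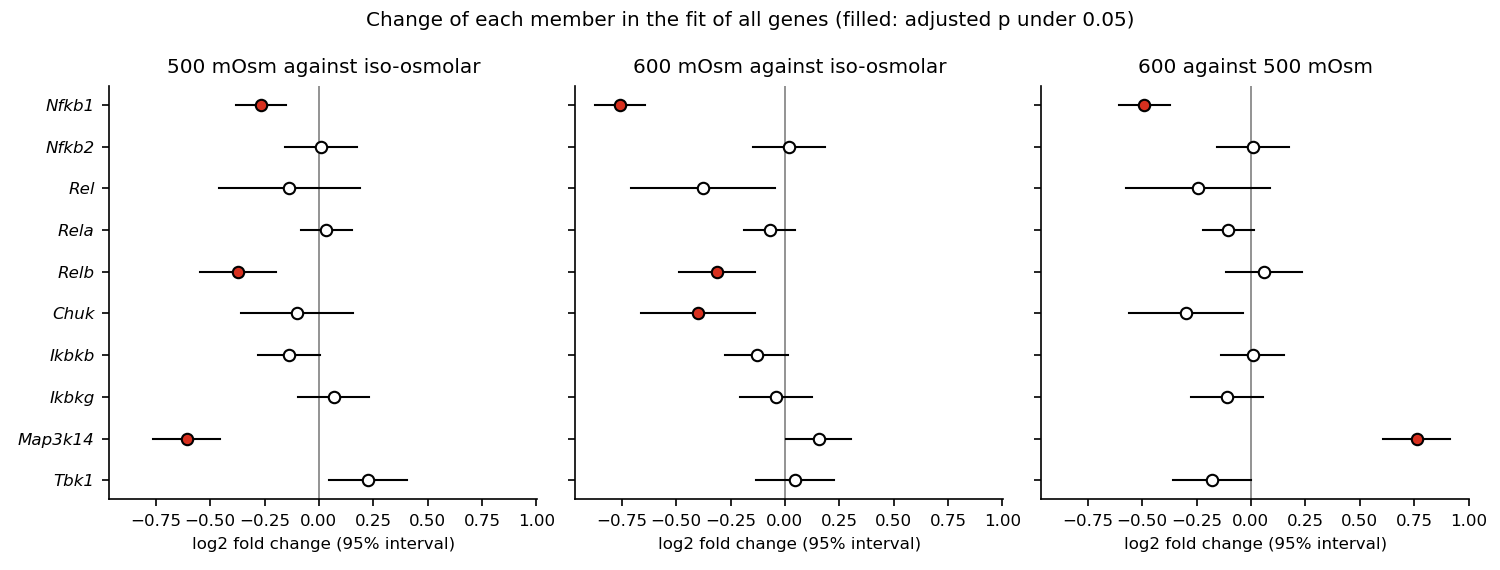
Log2 fold change (points) and 95% interval (lines) of each gene in the 3 comparisons, from edgeR's fit of all genes and libraries; filled points passed an adjusted p of 0.05. Intervals of Nfkb1 lie below 0 in all 3 panels, and that of Map3k14 lies below 0 at 500 mOsm and above 0 between the intensities.

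The levels of the subunit transcripts, whose products pair with each other as proteins, were also compared with their sum. The summed FPKM of the 5 subunits was 211 ± 4.16 (SD, n = 3) under iso-osmolar conditions, 202 ± 7.80 at 500 mOsm and 185 ± 7.46 at 600 mOsm. Nfkb1 made up 20.6 ± 1.24% of it under iso-osmolar conditions, 17.9 ± 1.86% at 500 mOsm and 13.7 ± 0.93% at 600 mOsm. The share of Nfkb2 was 42.4 ± 0.58%, 44.5 ± 2.25% and 48.1 ± 1.42%, although its own level was not called. The share of Rela was 28.8 ± 0.88%, 30.8 ± 0.92% and 30.8 ± 0.62%. Relb made up 7.36 ± 0.52%, 5.96 ± 0.08% and 6.66 ± 0.12%, and Rel 0.92 ± 0.14%, 0.88 ± 0.14% and 0.79 ± 0.07%. The shares sum to a fixed total, so they are not independent and were not tested.

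**Figure D3:**
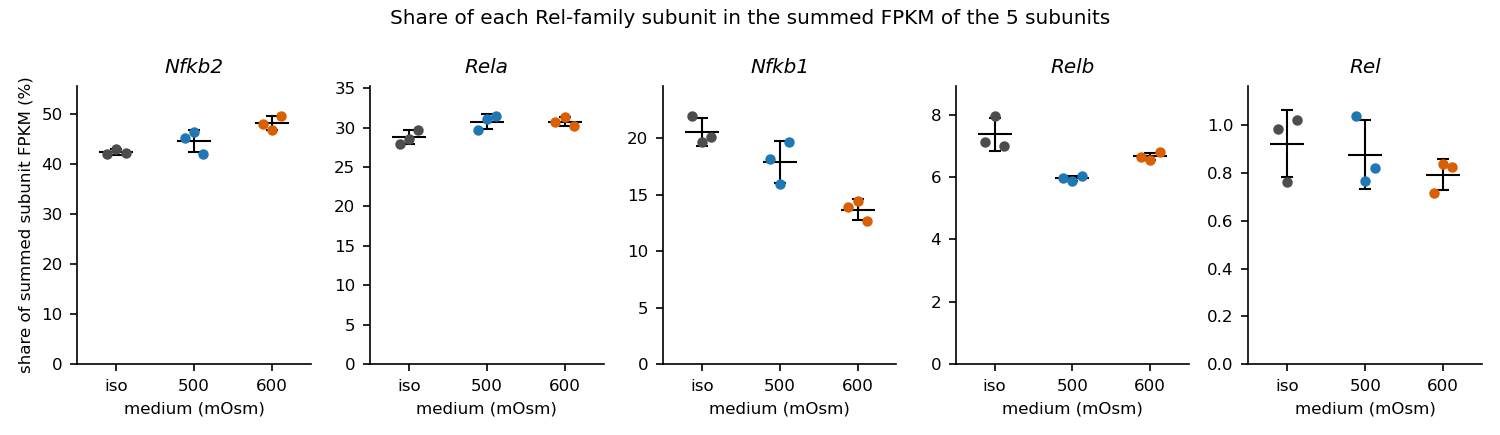
Share of each subunit in the summed FPKM of the 5 subunits (percent, linear axes from 0), per library (points) with mean and SD of 3 libraries. The mean share of Nfkb1 was 20.6% in iso-osmolar medium and 13.7% at 600 mOsm, while that of Nfkb2 was 42.4% and 48.1%.

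Ratios between genes within a library do not depend on its scaling. The ratio of Rela to Rel FPKM was 28.5, 37.6 and 29.1 in iso-osmolar medium, 28.6, 40.5 and 38.4 at 500 mOsm, and 42.9, 37.5 and 36.6 at 600 mOsm. These groups overlapped, and the log2 ratio of Rel to Rela differed by -0.17 at 500 mOsm and by -0.31 at 600 mOsm (exact two-sided permutation test, p = 0.3 for each). The log2 ratio of Relb to Rela was lower by 0.40 at 500 mOsm and by 0.24 at 600 mOsm, with no overlap between groups (exact permutation, p = 0.1 for each, adjusted p = 0.225 over 9 tests). With 3 libraries against 3, 0.1 is the smallest p this test allows, so no ratio could pass 0.05.

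Of the genes of the IKK complex 1 was called, at 600 mOsm, where 35.1% of all genes were called and 20.0% were lower. Chuk, the gene of IKKα (chr19:44073335-44107480, minus strand), was lower at 600 mOsm. Its CPM was 27.3, 20.5 and 24.0 in iso-osmolar medium, 23.8, 20.7 and 22.4 at 500 mOsm, and 18.3, 20.7 and 15.5 at 600 mOsm. One iso-osmolar library, at 20.5, lay below the highest 600 mOsm library, at 20.7, so these groups overlapped. Chuk fell by 24.1% at 600 mOsm (log2 fold change -0.40 ± 0.12 SE, adjusted p = 0.0219 by edgeR), and its log2 fold change was -0.10 at 500 mOsm (95% interval -0.36 to 0.16). Between the intensities it was -0.30 (95% interval -0.56 to -0.04, adjusted p = 0.0807 by edgeR). The call at 600 mOsm was lost without iso-osmolar replicate 1 (-0.30, adjusted p = 0.0965 by edgeR), iso-osmolar replicate 3 (-0.40, adjusted p = 0.05005), 600 mOsm replicate 1 (-0.40, adjusted p = 0.0586) or 600 mOsm replicate 3 (-0.30, adjusted p = 0.0932).

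Ikbkb, the gene of IKKβ (chr8:22659212-22706589, minus strand), had CPM of 26.6, 26.9 and 26.9 in iso-osmolar medium, 24.5, 23.7 and 24.9 at 500 mOsm, and 25.4, 25.0 and 23.1 at 600 mOsm. All stressed libraries lay below the iso-osmolar libraries, which were close to each other (26.6 to 26.9 CPM). The difference was small, -0.14 at 500 mOsm (95% interval -0.28 to 0.01, adjusted p = 0.146 by edgeR) and -0.13 at 600 mOsm (-0.27 to 0.01, adjusted p = 0.148 by edgeR). The correction for GC content and length turned the value at 600 mOsm to 0.0098 (adjusted p = 0.913 by edgeR). The log2 ratio of Chuk to Ikbkb FPKM differed by 0.05 at 500 mOsm (exact permutation, p = 0.8) and by -0.27 at 600 mOsm (exact permutation, p = 0.2).

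Ikbkg, the gene of NEMO (chrX:74393290-74453854, plus strand), overlaps G6pdx on the opposite strand by 19712 bases. G6pdx, the first enzyme of the pentose phosphate pathway, had a mean of 214 to 238 CPM, and whether counting used the strand is not stated, so the values of Ikbkg are uncertain. They were 37.3, 30.8 and 33.5 CPM in iso-osmolar medium, 36.5, 35.1 and 34.8 at 500 mOsm, and 34.6, 31.5 and 32.6 at 600 mOsm. The groups overlapped with iso-osmolar medium at both intensities, and the log2 fold change was 0.07 at 500 mOsm (95% interval -0.10 to 0.23) and -0.04 at 600 mOsm (-0.21 to 0.12). Its direction at 600 mOsm depended on the processing, since the correction for GC content and length gave 0.21 (adjusted p = 0.0263 by edgeR). The summed FPKM of Chuk, Ikbkb and Ikbkg was 17.3 ± 1.57 (SD, n = 3) without added sucrose, 16.5 ± 0.73 at 500 mOsm and 14.8 ± 1.17 at 600 mOsm.

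Map3k14, which encodes NIK (chr11:103219762-103267472, minus strand), had the largest change of the 10 genes at 500 mOsm, and it did not grow with osmolarity. Its CPM was 36.4, 38.0 and 35.6 in iso-osmolar medium, 25.2, 24.4 and 22.6 at 500 mOsm, and 43.0, 37.9 and 41.4 at 600 mOsm. Every 500 mOsm library lay below every other library, whereas the lowest 600 mOsm library, at 37.9, lay just below the highest iso-osmolar library, at 38.0. Map3k14 fell by 34.3% at 500 mOsm (log2 fold change -0.61 ± 0.07 SE, adjusted p = 3.07e-05 by edgeR), and 83.1% of all genes had a smaller absolute change. At 600 mOsm it differed from iso-osmolar medium by 0.15 (95% interval 0.00 to 0.31, adjusted p = 0.102 by edgeR). The 2 intensities themselves differed by 0.76 ± 0.07 (adjusted p = 5.72e-06 by edgeR), that is 1.70-fold. 1700028N14Rik, which lies within its span on the same strand, had at most 2 counts in a library. After the correction for GC content and length, Map3k14 also passed the threshold against iso-osmolar medium at 600 mOsm (0.18, adjusted p = 0.0217 by edgeR).

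Tbk1 (chr10:121546455-121586794, minus strand) was the only one of the 10 genes with a fitted value above 0.1 at 500 mOsm. Its CPM was 19.1, 19.0 and 20.0 in iso-osmolar medium, 24.1, 21.0 and 22.8 at 500 mOsm, and 19.5, 21.7 and 18.7 at 600 mOsm. The 500 mOsm libraries all lay above the iso-osmolar libraries, but the log2 fold change of 0.23 (95% interval 0.05 to 0.40) missed the threshold (adjusted p = 0.0582 by edgeR). It passed the threshold without 500 mOsm replicate 2 (0.27, adjusted p = 0.0410 by edgeR), without 600 mOsm replicate 2 (0.22, adjusted p = 0.0491), with at least 10 counts required in every library (0.24, adjusted p = 0.0490) and after the correction for GC content and length without and with the replicate block (0.26, adjusted p = 0.00923 and 0.0250). At 600 mOsm the log2 fold change was 0.05 (95% interval -0.13 to 0.23). Ikbke, the other IKK-related kinase, had 3.39 to 3.97 CPM in iso-osmolar medium and was not called at either intensity (0.25, adjusted p = 0.366, and 0.27, adjusted p = 0.291, by edgeR).

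The other genes of the pathway were read from lists of 74 genes by role, of which 70 were tested. At 500 mOsm 10 of the 70 rose and 17 fell, with a median log2 fold change of -0.02 against 0.01 over all genes tested. Of all genes 28.0% were called there, 13.2% higher and 14.8% lower. At 600 mOsm 4 rose and 32 fell, with a median of -0.22 against 0.01. The share of all genes was 35.1%, with 15.1% higher and 20.0% lower. In the step from 500 to 600 mOsm 5 rose and 25 fell, with a median of -0.07. The share of all genes was 29.1% for that step, with 11.9% higher and 17.2% lower. In all, 42 of the 70 were called in at least 1 comparison, beside 4 of the 10 subunit and kinase genes and 6677 of the 13082 genes tested.

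NIK protein is kept low by a complex of TRAF2, TRAF3 and the ubiquitin ligases cIAP1 (Birc2) and cIAP2 (Birc3). Traf2 had 59.2, 61.5 and 59.9 CPM in iso-osmolar medium, 94.0, 96.6 and 94.3 at 500 mOsm, and 73.4, 68.1 and 72.3 at 600 mOsm. It was thus highest in the group where Map3k14 was lowest, and rose by 0.66 on the log2 scale at 500 mOsm (adjusted p = 6.38e-07 by edgeR) and by 0.24 at 600 mOsm (adjusted p = 0.00230 by edgeR). Birc2 had 32.8, 28.4 and 34.2 CPM in iso-osmolar medium, 22.1, 16.6 and 21.1 at 500 mOsm, and 24.6, 24.7 and 24.8 at 600 mOsm. Like Map3k14 it was lowest at 500 mOsm, and fell by 0.67 there (adjusted p = 0.000305 by edgeR) and by 0.36 at 600 mOsm (adjusted p = 0.0158 by edgeR). Birc3 fell by 0.63 and 0.59 at the 2 intensities. Traf3 was lower at 600 mOsm (-0.19, adjusted p = 0.0137 by edgeR), and its log2 fold change was 0.05 at 500 mOsm. These 4 genes therefore had no common direction. Ltbr, a receptor that signals through NIK, was not called (0.03 and 0.08). Birc3, Traf3, Ltbr and Ikbke were picked from the lists after their values were seen.

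Of 26 genes for TRAF proteins, IAPs, ubiquitin enzymes and kinase adaptors, 2 rose and 5 fell at 500 mOsm, and 3 rose and 10 fell at 600 mOsm, beside 28.0% and 35.1% of all genes called. Over all genes 13.2% were higher and 14.8% lower at 500 mOsm, and 15.1% and 20.0% at 600 mOsm. Tbkbp1, an adaptor that binds TBK1, had 0.27 to 0.66 CPM in iso-osmolar medium, 6.17 to 6.88 at 500 mOsm and 0.40 to 1.08 at 600 mOsm. It thus rose by 3.71 ± 0.27 (SE) on the log2 scale at 500 mOsm (adjusted p = 4.91e-07 by edgeR), from a level near the floor of detection. Traf5 fell by 1.004 at 500 mOsm, from 12.5 to 13.1 CPM in iso-osmolar medium to 6.17 to 6.67 CPM. Traf1 fell by 0.74 at 500 mOsm and by 1.55 at 600 mOsm. Tab1, a partner of the IKK-activating kinase TAK1, was like Map3k14 lowest at 500 mOsm. It fell by 0.28 at 500 mOsm (adjusted p = 0.0188 by edgeR) and rose by 0.37 at 600 mOsm (adjusted p = 0.00288 by edgeR). Ube2v1 was also called lower at 600 mOsm (-1.65, adjusted p = 0.0307 by edgeR), but it had at most 1.05 CPM in a library.

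Of 17 receptors and adaptors tested, 2 rose and 6 fell at 500 mOsm, while none rose and 8 fell at 600 mOsm, beside 13.2% higher and 14.8% lower, and 15.1% and 20.0%, of all genes. At 500 mOsm Tnfrsf1b, the second TNF receptor, fell by 0.78 and Ticam1, the adaptor TRIF, by 0.69. Both were closer to iso-osmolar medium at 600 mOsm and were higher there than at 500 mOsm (0.55 and 0.42, adjusted p = 6.84e-05 and 0.00145 by edgeR). Il1r1, the interleukin-1 receptor, fell by 0.61 and Tlr2 by 0.37 at 600 mOsm. Tnfrsf12a, the receptor of TWEAK, rose by 0.21 at 500 mOsm and fell by 0.22 at 600 mOsm, and Irak1 rose by 0.19 at 500 mOsm.

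Of 20 inhibitors and feedback genes tested, 6 rose and 5 fell at 500 mOsm, and 1 rose and 10 fell at 600 mOsm, where 28.0% and 35.1% of all genes were called. Over all genes 13.2% were higher and 14.8% lower at 500 mOsm, and 15.1% and 20.0% at 600 mOsm. Nfkbia (IκBα) had 73.4 to 75.4 CPM in iso-osmolar medium, 211 to 223 at 500 mOsm and 33.1 to 33.5 at 600 mOsm, and Tnfaip3 (A20) and Nfkbiz (IκBζ) had the same order, with log2 fold changes of 1.72 and 0.99 at 500 mOsm and -1.02 and -2.50 at 600 mOsm. Nfkbie (IκBε) fell by 1.23 and Nkrf by 0.83 at 500 mOsm, and Pdlim2, a ubiquitin ligase for p65, rose by 0.51 there and by 0.63 at 600 mOsm.

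Of the 7 genes for NFAT factors, PACT and PKR, 1 was lower at 500 mOsm and 4 at 600 mOsm, beside 14.8% and 20.0% of all genes. Nfat5 encodes TonEBP, which shares the Rel homology domain. Its CPM was 65.0, 58.8 and 79.2 in iso-osmolar medium, 96.5, 69.9 and 85.2 at 500 mOsm, and 32.2, 45.0 and 31.9 at 600 mOsm. The 600 mOsm libraries lay below all others, and Nfat5 fell by 0.90 ± 0.15 (SE) on the log2 scale at 600 mOsm (adjusted p = 0.000609 by edgeR), with a log2 fold change of 0.31 at 500 mOsm (adjusted p = 0.140 by edgeR). Nfatc1 fell by 0.67 at 500 mOsm and by 1.18 at 600 mOsm, and Nfatc2 fell by 1.34 at 600 mOsm. Prkra (PACT) and Eif2ak2 (PKR) were not called, with log2 fold changes of 0.18 and 0.37 at 500 mOsm and 0.20 and 0.27 at 600 mOsm.

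**Figure D4:**
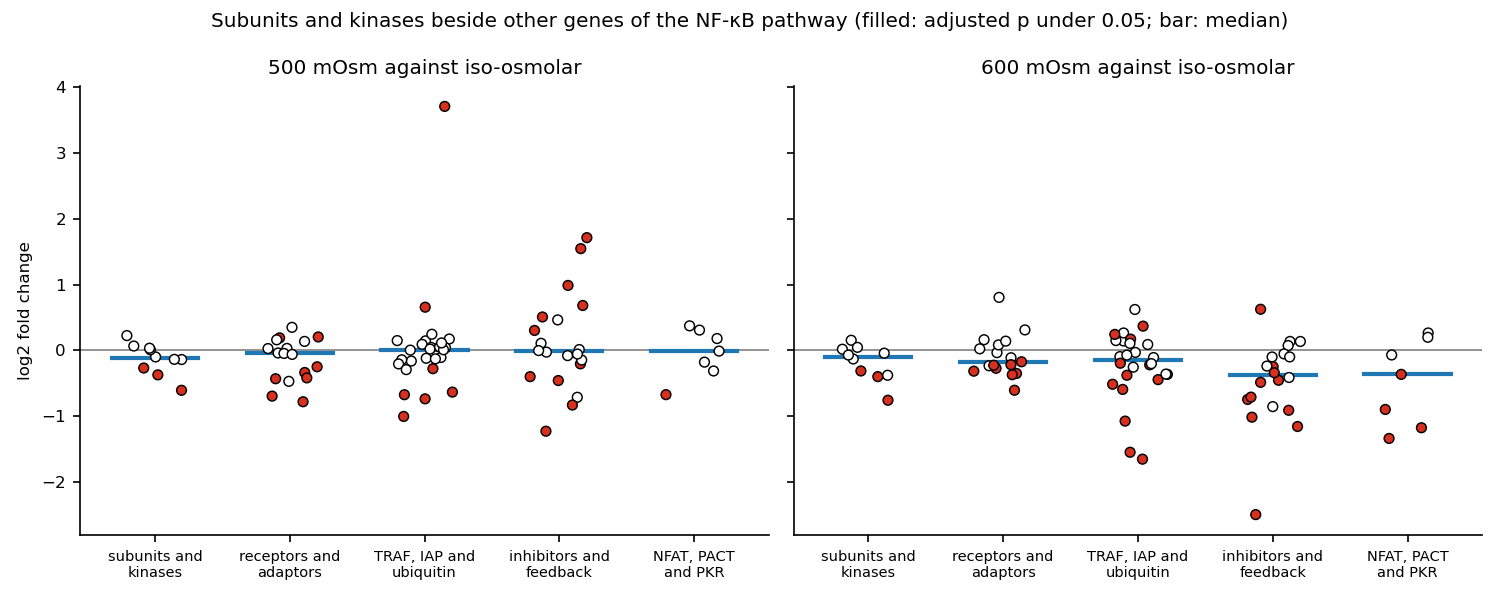
Log2 fold changes of the subunit and kinase genes beside the other pathway genes tested, by role, at 500 mOsm (left) and 600 mOsm (right) against iso-osmolar medium; filled points passed an adjusted p of 0.05 in edgeR, and blue bars are medians. The 10 subunit and kinase genes lie within -0.61 to 0.23 in the left panel and within -0.76 to 0.15 in the right one, while inhibitors span -1.23 to 1.72 and -2.50 to 0.63.

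The nearest upstream genes on the same strand were read beside these genes. Xpot, which lies 586 bases upstream of Tbk1 on the same strand, had log2 fold changes of -0.04 at both intensities. Clptm1, 2143 bases upstream of Relb, had -0.01 at 500 mOsm and 0.20 at 600 mOsm (adjusted p = 0.0190 by edgeR), where Relb was lower. Cwf19l1, 1164 bases upstream of Chuk, had 0.11 at 600 mOsm. Papolg, upstream of Rel at a distance of 91676 bases, was lower at 500 mOsm (-1.13, adjusted p = 0.00136 by edgeR) and had 0.03 at 600 mOsm. Gbf1, upstream of Nfkb2, was higher at both intensities (0.19 and 0.20, adjusted p = 0.00338 and 0.00267 by edgeR), where Nfkb2 was not called. Arhgap27, upstream of Map3k14 by 64025 bases, was higher at both (1.36 and 1.13, adjusted p = 0.00642 and 0.0193 by edgeR), from 4 to 12 counts in iso-osmolar medium. Plxna3, upstream of Ikbkg, was lower at 500 mOsm (-0.35, adjusted p = 0.00427 by edgeR), and Rnaseh2c, upstream of Rela, was higher at 600 mOsm (0.19, adjusted p = 0.0357 by edgeR). Ap3m2, upstream of Ikbkb, was not called (0.15 and 0.03), and Bank1, upstream of Nfkb1, had at most 1 count in a library. Of the overlapping genes, Psd shares 4 bases with Nfkb2 on the opposite strand and was lower at 600 mOsm (-0.25, adjusted p = 0.0307 by edgeR), and Gm15346, on the opposite strand of Ikbkb, was listed at 0.

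The genes whose levels ran most like those of 4 subunits were found by Pearson's r of log2 CPM over the 9 libraries, which share their depth and treatment, as a description only. Nfkb2 was most like Sipa1 (r = 0.97), Mapk8ip1 (0.97) and Map3k10 (0.97), all of which were nearly level across the treatments. Relb was most like Gpr153 (0.97), Sphk1 (0.96) and Polr3d (0.96), and 132 genes had an r above 0.9 with it. Sphk1, a sphingosine kinase, had a mean of 102 CPM without added sucrose, 65.9 at 500 mOsm and 70.0 at 600 mOsm, the order of Relb. Rela was most like C77080 (0.95), Ubtd1 (0.94) and Senp3 (0.94), and Rel like Pgm2l1 (0.96), Gm16973 (0.94) and Prdm9 (0.93).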

How the data were processed

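RNA of 9 MEF libraries was poly-T enriched and sequenced as paired-end reads. The authors removed adapter and low-quality reads and aligned the rest to mm10 (CASAVA 1.8 and STAR are in the submitters' processing notes). The counting tool and strand setting are not given in the sources used here. The deposited table holds, for each library, the count of reads per gene, without normalization, and the authors' FPKM, made from that count, the gene length and the library total. Another 21 columns, the authors' group means, fold changes and p-values, were not used.

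Counts were normalized by TMM and tested with edgeR 4.0.16 (R 4.3.3), by the quasi-likelihood test with treatment as the factor, all 9 libraries in 1 fit and the low-count filter filterByExpr. Benjamini-Hochberg adjustment ran over 13082 genes, with a threshold of 0.05. CPM are counts scaled to a common, TMM-adjusted library total. Standard errors and 95% intervals come from the same fit. FPKM ratios were compared by exact two-sided permutation, adjusted over 9 tests. The edgeR step was tested on simulated data. A floor of 3 counts corresponds to 0.112 to 0.138 CPM and covers counting error only. The common biological coefficient of variation was 0.0756. No replicate pair agreed within sampling noise.

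Alternatives were DESeq2 1.42.0, limma 3.58.1 on log2 FPKM with 1 or 0.1 added, other scaling and filters, fits of 2 groups, a stricter threshold, a replicate block and leaving out each library. A correction for GC content and length, with and without the block, was added after seeing the data. The genes, the lists and the rule for naming genes were chosen with earlier results of these data known. The rule names all 10 genes, the 2 genes per direction, role and comparison with the largest change among those called, neighbours and overlapping genes, the 3 genes most like each of 4 subunits, and Nfat5, Prkra and Eif2ak2. Sequences are from RefSeq (GRCm38.p6).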

Additional observations from a re-analysis of the deposited data

Results flagged for a closer look

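The effects of the 2 intensities, each against iso-osmolar medium, differed for Nfkb1 and Map3k14 by edgeR's test between 600 and 500 mOsm. At 600 against 500 mOsm the log2 fold change was -0.49 for Nfkb1 (adjusted p = 2.22e-05 by edgeR) and 0.76 for Map3k14 (adjusted p = 5.72e-06 by edgeR). For Nfkb1 all 3 libraries at 600 mOsm were below all 3 at 500 mOsm, and for Map3k14 all 3 were above. No explanation of either difference was tested.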

How the results depend on the processing

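The number of the 10 genes called at 500 mOsm was 3 or 4 under all alternatives. At 600 mOsm it was 3, but 2 at an adjusted p under 0.01. It was 7 there after correction for GC content and length and 5 with the replicate block added to that correction. Those 2 fits called 4984 and 4436 of the 13082 genes at 600 mOsm. Between the intensities the number was 2, but 3 with no filter on low counts and 4 under each of the GC-corrected fits. With no filter, 4464 of 23419 genes were called in that comparison. The GC-corrected fits called 4209 and 3700 of 13082 there, without and with the block. Without each library in turn the counts among the 10 genes ranged from 3 to 4, 2 to 4 and 2 to 3. Over all genes they ranged from 3156 to 3895, 3567 to 4692 and 2950 to 3890, with 13275 to 13447 genes tested. The calls of Nfkb1 and Relb against iso-osmolar medium, and of Map3k14 at 500 mOsm and between the intensities, kept their side of the threshold in all alternatives, including an adjusted p under 0.01. At that threshold Chuk at 600 mOsm was not called, and 2466, 2846 and 2352 of all genes were called in the 3 comparisons, against 3659, 4594 and 3810 at 0.05. Rel at 600 mOsm was called after the GC correction (-0.37, adjusted p = 0.0434 by edgeR) and without iso-osmolar replicate 2 (-0.48, adjusted p = 0.0412). The GC-corrected call was lost with the block added (-0.37, adjusted p = 0.0646). Chuk between the intensities was called without 600 mOsm replicate 2 (-0.40, adjusted p = 0.0302), with no filter on low counts (-0.28, adjusted p = 0.0257) and after the GC correction without and with the block (-0.27, adjusted p = 0.0226, and -0.28, adjusted p = 0.0345). No pairing by replicate number was seen in deviations from the treatment means. Those of same-numbered libraries correlated with a mean of -0.24 (from -0.69 to 0.61, 9 pairs). Those of other libraries correlated with a mean of 0.12, and 2 of 9 libraries correlated best with their own number. Each mean rests on only 3 libraries, so this check cannot decide whether same-numbered libraries shared a batch. With the replicate block alone 3, 3 and 2 of the 10 genes and 25, 34 and 29 of the 70 pathway genes were called. That fit called 3111, 3798 and 3089 of the 13082 genes tested.

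Values near 0 changed sign, none of them called except Ikbkg. Nfkb2 at 500 mOsm was -0.0066 with no filter, -0.0077 after the GC correction and -0.0078 with the block added. Nfkb2 at 600 mOsm was -0.0023 with library size alone, -0.0042 with limma at either pseudocount, and -0.017 after the GC correction with or without the block. Between the intensities Nfkb2 was -0.0087 with library size alone, -0.0039 with at least 10 counts in every library, -0.0073 and -0.0074 with limma, and -0.0091 and -0.0088 after the GC correction without and with the block. Ikbkb between the intensities was -0.0083 with library size alone, -0.0043 with at least 10 counts, and -0.0073 and -0.0087 with limma, and at 600 mOsm it was 0.0098 and 0.0097 after the GC correction without and with the block. Ikbkg after that correction was 0.21 at 600 mOsm (called) and 0.10 between the intensities, with or without the block. The cause was not tested. Leaving out 1 library in turn gave log2 ratios of Chuk to Ikbkb at 500 mOsm from -0.063 (without iso-osmolar replicate 2) to 0.15, and of Rel to Rela between the intensities from -0.23 to 0.019 (without 500 mOsm replicate 1). It gave log2 fold changes at 500 mOsm from -0.068 to 0.084 for Nfkb2, -0.019 to 0.056 for Rela and -0.20 to 0.0013 for Chuk, at 600 mOsm from -0.047 to 0.080 for Nfkb2, -0.11 to 0.031 for Ikbkg and -0.015 to 0.092 for Tbk1, and between the intensities from -0.065 to 0.085 for Nfkb2 and -0.016 to 0.050 for Ikbkb. Counts of 3 or fewer in a library limit what is said of the lowest genes, and 90 to 145 counts limit Rel.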
